A study of Mus musculus with 2 samples.

Results

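In activated regulatory T cells of the mouse, distal accessible regions were stitched into groups, and the 456 groups that held 4 or more regions are described here as dense clusters. Distal means over 1000 bp from every transcription start site (TSS) of a protein-coding gene, and regions were stitched where the gap between them was 12.5 kb or less. The members were chosen by measured values: the presence of peaks in the list past a threshold on the irreproducible discovery rate (IDR) set the regions, and the signal value of each peak set the rank. The count of regions, the summed signal and the rank of a cluster are therefore descriptions. The 456 clusters made up 4.54% of the 10054 stitched groups and held 2225 of 14716 distal regions, or 15.1% (Wilson 95% interval 14.5 to 15.7), out of 26090 accessible regions in all. Each cluster is named by the gene whose TSS lies nearest to most of its regions, which says nothing of whether that gene is controlled from there.

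The cells came from male adult mice aged 4 months of the strain Foxp3CreERT2 x Rosa26YFP. In such mice the Foxp3 gene drives a Cre recombinase that tamoxifen switches on, and a yellow fluorescent reporter stands in the Rosa26 locus, so both libraries carry both alleles. The labels call the material primary cells, give bone marrow hematopoietic cells as their origin, and do not say how the cells were activated. Chromatin was profiled by ATAC-seq, in which a transposase inserts sequencing adapters into open DNA, in 2 libraries that are technical replicates of 1 biological replicate. The peak lists describe both libraries together, no control group was labelled, no value has a replicate, and the depth is unknown. Intervals on shares cover counting error only, and they treat regions as independent although regions of 1 cluster are neighbours.

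Regulatory T cells are CD4 T cells that express the transcription factor Foxp3 and restrain other immune cells. Stretches of chromatin with many enhancers close together are known from many cell types, often near genes that define the cell, and stitching of neighbouring sites is the usual way to find them. Such stretches are most often ranked by a histone mark or a coactivator. Here the ranking rests on accessibility alone, so the clusters cannot be equated with super-enhancers. As a check of the label, where 49.1% of all protein-coding genes had a promoter region, 5 of 7 regulatory T cell markers (Foxp3, Il2ra, Ctla4, Ikzf2 and Cd3e) had one, meaning a region within 1000 bp of a TSS of the gene, and Tnfrsf18 and Cd4 had none in this list. Promoter regions were also present for 2 of 5 B cell markers (Pax5 and Ebf1), 2 of 5 myeloid markers (Spi1 and Cebpa), 0 of 3 NK cell markers and 1 of 2 CD8 T cell markers (Cd8b1). Lists this short, with shares on both sides of the background, are a weak check. Of all 21938 protein-coding genes, 513 were the nearest gene to a region of a cluster. Among the markers this held for 4 of 7 of regulatory T cells (Il2ra, Ctla4, Ikzf2 and Tnfrsf18) and 1 of 3 of NK cells (Klrb1c). It held for no B cell, myeloid or CD8 marker, which at the share over all genes does not set such short lists apart.

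The sequences below are the 201 bases centred on the strongest summit of 8 clusters, on the plus strand of mm10, read from the GRCm38.p6 genome of RefSeq. They are shown because these clusters lie at genes of regulatory T cell identity or signalling, or lead the ranking. Windows were also read for the clusters of Tnfaip3, Izumo1r, S1pr1 and Ifng, and these are not shown. Capitals mark matches to ETS (ACAGGAAGT or ACCGGAAGT), RUNX (TGTGGTT), AP-1 (TGANTCA), NF-kB (GGNNTTTCC), STAT (TTCNNNGAA), forkhead (TGTTTAC), TCF/LEF (ATCAAAG) or NFAT (TGGAAAA) on either strand. The windows lie at chr3:152941784-152941984 for St6galnac5, chr4:145254569-145254769 for Tnfrsf1b, chr6:129284475-129284675 for Cd69, chr2:11218228-11218428 for Prkcq, chr1:60853448-60853648 for Ctla4, chr1:69544286-69544486 for Ikzf2, chr4:32343871-32344071 for Bach2 and chr9:32915772-32915972 for Ets1.
St6galnac5: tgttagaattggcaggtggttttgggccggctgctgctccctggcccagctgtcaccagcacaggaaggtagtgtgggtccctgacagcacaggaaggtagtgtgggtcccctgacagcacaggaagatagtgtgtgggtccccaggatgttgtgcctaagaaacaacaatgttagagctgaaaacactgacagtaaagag
Tnfrsf1b: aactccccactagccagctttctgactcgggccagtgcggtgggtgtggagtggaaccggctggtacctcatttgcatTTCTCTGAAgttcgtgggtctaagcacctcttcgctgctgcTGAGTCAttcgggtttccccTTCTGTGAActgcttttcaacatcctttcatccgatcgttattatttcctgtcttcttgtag
Cd69: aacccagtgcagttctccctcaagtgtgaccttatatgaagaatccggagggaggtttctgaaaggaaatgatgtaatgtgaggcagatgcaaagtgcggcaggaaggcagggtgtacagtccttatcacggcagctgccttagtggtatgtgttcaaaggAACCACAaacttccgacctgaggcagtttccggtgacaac
Prkcq: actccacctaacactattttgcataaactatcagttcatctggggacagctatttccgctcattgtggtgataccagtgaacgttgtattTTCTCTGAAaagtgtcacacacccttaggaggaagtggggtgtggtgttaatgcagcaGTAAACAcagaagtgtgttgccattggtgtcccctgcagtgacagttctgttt
Ctla4: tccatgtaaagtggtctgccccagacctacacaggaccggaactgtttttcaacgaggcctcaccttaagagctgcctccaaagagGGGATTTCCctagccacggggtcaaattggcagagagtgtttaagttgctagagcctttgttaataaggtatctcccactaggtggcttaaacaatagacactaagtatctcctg
Ikzf2: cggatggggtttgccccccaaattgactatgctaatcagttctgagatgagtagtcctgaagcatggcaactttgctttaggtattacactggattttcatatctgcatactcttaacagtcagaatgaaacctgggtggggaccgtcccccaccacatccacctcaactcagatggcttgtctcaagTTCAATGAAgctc
Bach2: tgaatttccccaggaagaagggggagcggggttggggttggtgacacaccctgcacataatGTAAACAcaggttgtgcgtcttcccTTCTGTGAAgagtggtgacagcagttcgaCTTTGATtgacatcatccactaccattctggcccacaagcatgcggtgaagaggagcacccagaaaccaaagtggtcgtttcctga
Ets1: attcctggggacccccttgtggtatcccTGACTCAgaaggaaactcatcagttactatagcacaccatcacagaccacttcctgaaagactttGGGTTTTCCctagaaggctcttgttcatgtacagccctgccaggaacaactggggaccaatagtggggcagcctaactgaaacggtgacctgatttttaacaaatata

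The window of Tnfrsf1b held an AP-1 match starting 19 bases right of the summit and STAT matches starting 22 bases to its left and 39 bases to its right. The intergenic Cd69 window held 1 RUNX match, 61 bases from the summit. In the intronic Prkcq window a STAT match started 10 bases left of the summit and a forkhead match 48 bases right of it. The Ctla4 window, upstream of the gene, held an NF-kB match starting 14 bases left of the summit. The intronic Bach2 window held matches to 3 families (forkhead, STAT and TCF/LEF), and the Ets1 window, far downstream of its gene, held AP-1 and NF-kB matches. The Ikzf2 window had a single STAT match near its right end, 88 bases from the summit. No match was found in the St6galnac5 window, which instead held a stretch of 26 bases in 2 exact copies. Of the windows not shown, those of Tnfaip3, Izumo1r and Ifng also held no match. That of S1pr1 held a forkhead match starting 71 bases right of the summit. A match is a description of letters, and an absent match says only that these letters are not in the window.

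The 20 clusters of highest summed signal were led by a cluster within the introns of St6galnac5, a sialyltransferase gene, with a summed signal of 133 over 12 regions. It lies at chr3:152912035-152970453 (58.4 kb), between 12.1 and 69.7 kb downstream of the St6galnac5 TSS, and the annotated span of Pigk also covers it. Its regions ran from 6.10 to 16.4 in signal, with a median of 11.4, so that no single region carried the sum. St6galnac5 itself had no promoter region in the thresholded list and a weak one, with a signal of 4.05, in the pseudoreplicated list. The cluster named by Poc1b, a centriole gene, reached a sum of 122 with only 7 regions, of which 4 had a signal of 21 to 22.5 (21, 22, 22.5 and 21.6). The third was the cluster of Tnfrsf1b, which encodes tumour necrosis factor receptor 2, a receptor found on regulatory T cells, with a sum of 121 over 12 regions at chr4:145210575-145287068. It was the widest of all clusters at 76.5 kb, and it reached from 36.1 kb downstream to 40.05 kb upstream of the nearest Tnfrsf1b TSS, ending in introns of the neighbouring receptor gene Tnfrsf8. Of its regions 7 were intronic and 5 intergenic, with signals from 6.75 to 17.2.

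Next came intergenic clusters that lie far from their naming gene. The Mkln1 cluster had the most regions of any (13, summed signal 107) and lay 179.5 kb upstream of the Mkln1 TSS, with Klf14 191.4 kb away on its other side. The clusters of Irf2bpl (11 regions, summed signal 107) and Tomm20 (10 regions, summed signal 107) lay 47.7 and 61.1 kb from the naming TSS. These 3 sums rest on many regions of middling strength: the strongest region had a signal of 13.9 at Mkln1, 15 at Irf2bpl and 16.3 at Tomm20.

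Genes of T cell activation and signalling were among the others of the leading 20. Cd69, an early activation marker that holds lymphocytes in tissue, named a cluster of 8 regions with a sum of 88.5, whose strongest region (signal 21.4) lay 9.1 kb upstream of the TSS. Its other regions lay 1.5 to 42.3 kb downstream, and their signals were 9.18, 7.57, 10.9, 8.52, 16.3, 5.91 and 8.71 from the nearest to the farthest. Prkcq, the kinase that links the T cell receptor to NF-kB, named 9 intronic regions (sum 88.2, signals 4.61 to 14.8) and had no promoter region in the thresholded or the pseudoreplicated list. The cluster of Ifnar1, a chain of the interferon receptor, held 8 intergenic regions (sum 91.0) between Il10rb and Ifnar1. Its outermost regions were its strongest, with signals of 19.6 and 24.1, and the 6 between them ran from 4.12 to 11.2. Dgkh, a diacylglycerol kinase gene, and Cd200r3, a receptor gene, reached sums of 87.6 and 87.2 with 5 regions each. Ankrd44 (8 regions, sum 102), Ppp1r16b (10 regions, sum 98.2), Slc12a7 (6 regions, sum 93.2), Ago2 (9 regions, sum 88.4), Dnajb12 (8 regions, sum 88.2), Pip4k2a (8 regions, sum 86.7), Rpia (6 regions, sum 83.9), Tmsb10 (7 regions, sum 83.2) and Asb2 (6 regions, sum 83.1) completed the 20. Together the 20 held 8.41% of the summed signal of all clusters. Their median was 8 regions and 46.1 kb, against 4 regions and 20.9 kb over all 456.

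**Figure D1:**
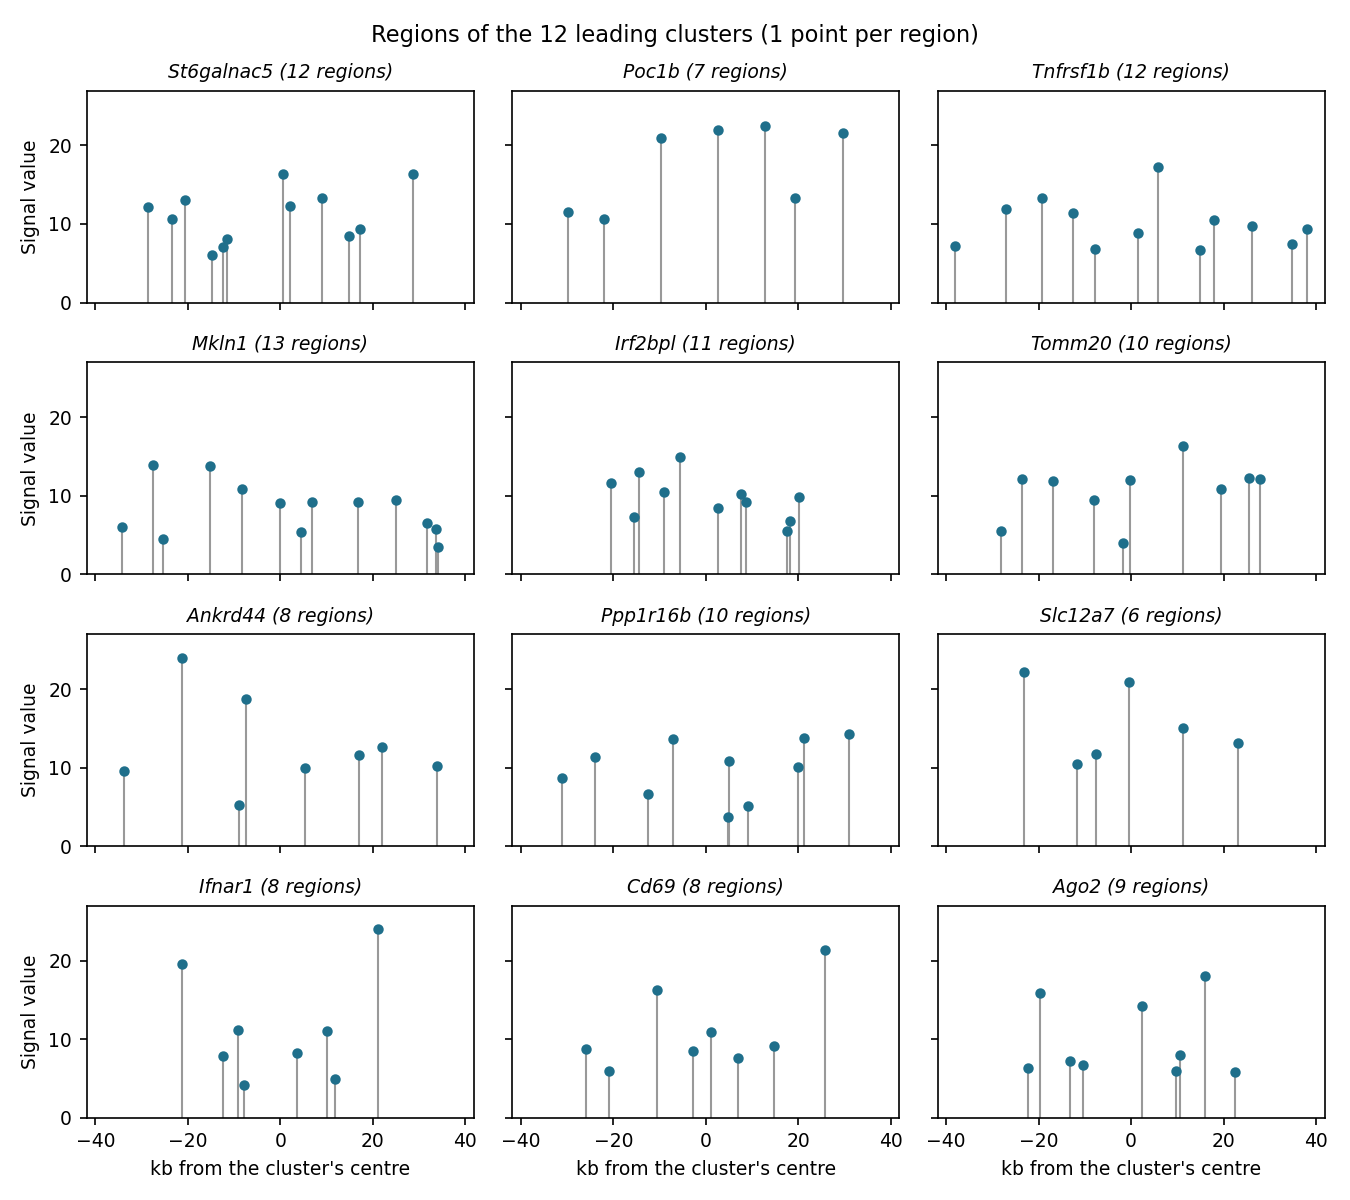
Signal value (vertical axis) of each region of the 12 clusters of highest summed signal against its distance in kb from the centre of the cluster (horizontal axis); 1 point is 1 region. The St6galnac5, Mkln1 and Irf2bpl clusters hold many regions with signals under 17, and the Poc1b, Ankrd44 and Ifnar1 clusters hold regions above 19.

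Across all clusters the summed signal ran from 14.7 to 133, with a median of 48.2 (quartiles 39.0 and 59.8). Cluster sizes fell off steeply: 251 clusters held 4 regions, 104 held 5, 54 held 6, 23 held 7 and 24 held 8 to 13. The span had a median of 20.9 kb (quartiles 14.8 and 28.4) and ran from 2.24 kb at Itpk1 to 76.5 kb at Tnfrsf1b. All spans together came to 10.3 Mb, or 0.377% of the genome. Within a span the regions themselves covered a median of 12.2%, and neighbouring regions lay a median of 4720 bp apart. The strongest region supplied a median of 31.7% of a cluster's summed signal (12.3% to 55.4%) and over 50% in 10 clusters. It was a median of 2.45 times as strong as the weakest region of its cluster, and it stood at an end of the span in 243 clusters. Either end counts, and 251 clusters held only 4 regions. The count was not compared with a random order.

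**Figure D2:**
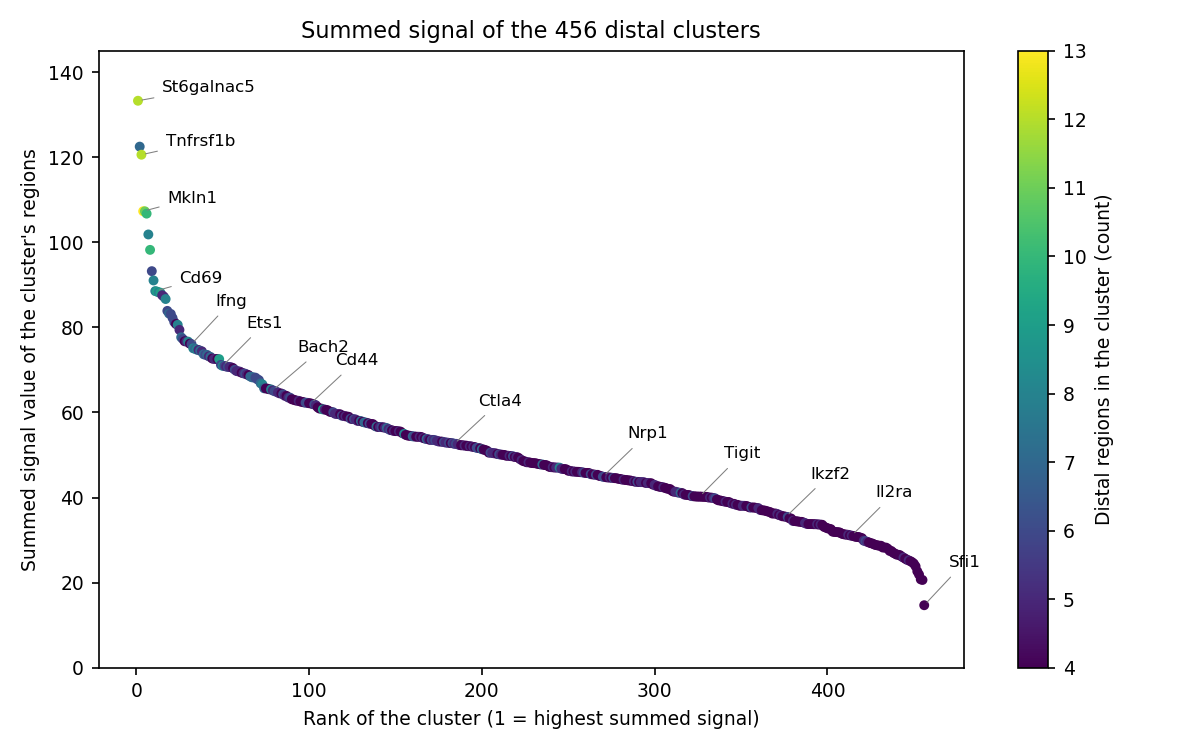
Summed signal value of each of the 456 clusters (vertical axis, starting at 0) against its rank (horizontal axis), coloured by the number of distal regions. The sum falls from 133 at St6galnac5 to 14.7 at Sfi1, and the labelled clusters of Ctla4 (the higher of its 2), Nrp1, Tigit, Ikzf2 (the higher of its 2) and Il2ra stand at ranks 184 to 414.

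The choice of 4 regions as the minimum drew no gap in the data. Clusters of exactly 4 regions (n = 251) had sums of 14.7 to 80.8 with a median of 43.7. The 589 groups of 3 regions, just outside, had sums of 14 to 65.9 with a median of 33.8. The strongest groups of 3, at Sf3b5 (65.9), Taf3 (61.5), Bach1 (61.1), Alox5ap (60.3) and Tram1 (59.9), lay above the upper quartile of the clusters (59.8). The lowest sums among the clusters were those of the 2 Sfi1 clusters (14.7 and 20.6) and of Tet3 (20.8), Trib1 (21.9) and Sash3 (22.7). Density picked out other loci than the sum did. The most regions per kb were found at Itpk1 (4 regions in 2.24 kb), followed by Trib1 (3.10 kb), Atg10 (3.14 kb), Trio (3.91 kb) and Sumf1 (4.68 kb), each with 4 regions.

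Clusters lay inside genes about as often as between them. All regions were within 1 gene in 182 clusters, and that gene was the naming gene in 165. All regions were intergenic in 164 clusters, and 110 were mixed. No protein-coding TSS lay inside 331 of the spans, and 79 spans also contained promoter regions, 105 in all, which did not count toward the 4. The naming gene overlapped the span in 269 clusters, while 125 clusters lay upstream of it and 62 downstream. The span reached within 10 kb of the naming TSS in 245 clusters and lay over 100 kb from it in 29. A single nearest gene was shared by all regions of 362 clusters.

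The 456 clusters were named by 420 genes, 1.91% of the 21938 protein-coding genes. Of these, 354 (84.3%, interval 80.5 to 87.5) had a promoter region, against 49.1% of all protein-coding genes. The rule did not use promoter regions, but nearness to any distal region already raised the share: it was 70.1% for genes nearest to single distal regions, 74.0% for groups of 2, 79.1% for groups of 3 and 80.9% (77.3 to 84.1) for the 513 genes nearest to a region of a cluster. The promoter regions of naming genes had lower signal values than those of other genes, with a median of 12.4 (quartiles 9.29 and 16.6, n = 354) against 16.7 (12.9 and 20.6, n = 10420). Their median −log10 p was also lower, at 122 against 152. The stretch of genome nearest to their TSS was a median of 137 kb long, compared with 45.0 kb over all genes. The part of this length in the share was not tested.

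Of the 66 naming genes with no promoter region, 21 had one in the pseudoreplicated list and 45 had none there either. Besides St6galnac5, Prkcq and Asb2 they included Il10, Tnfrsf18, Tcf7 and Ikzf3, all genes with roles in T cells, and Fli1, an ETS factor gene. In the pseudoreplicated list the promoter regions of Fli1, Tcf7 and Ikzf3 had signals of 3.71, 3.91 and 5.98. Il10 and Tnfrsf18 had none there. Myo3b (sum 77.7) and Sv2b (sum 73.7), known from sensory and nerve cells, were in the same group, and each named 7 regions.

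Of 20 genes of the regulatory T cell core, 8 named a cluster (40%), against 1.91% of all protein-coding genes. This list, like those below, was chosen with earlier results of these data known, so the share is a description. A promoter region was present for 18 of the 20, against 49.1% of all protein-coding genes. The stretches nearest to the TSSs of this list had a median of 68.3 kb, compared with 45.0 kb over all genes. The strongest of these clusters was shared by Izumo1r, the folate receptor 4 gene, and Gpr83, a receptor gene highly expressed in regulatory T cells, which lie side by side. Its 5 regions had signals of 17.2, 10.9, 16.6, 7.43 and 11.8 (sum 63.9), the first 2 nearest to Gpr83 and the other 3 to Izumo1r. Ctla4, the inhibitory receptor through which regulatory T cells deplete costimulatory ligands, named 2 clusters of 5 regions each. The upstream cluster at chr1:60853367-60883135 reached back 33.5 kb from the TSS with signals of 16, 7.66, 12.3, 9.51 and 7.11 from its far to its near end. The other lay over the gene with weaker regions (3.95 to 9.01, sum 29.6). Ikzf2, which encodes the factor Helios, also named 2 clusters of nearly equal sum (35.5 and 35.4). The one farther from the TSS held an intronic region of 16.9 beside 3 of 5.77 to 6.60, and the one around the start held 6 regions of 4.70 to 7.90. A stronger cluster named by Spag16 (sum 60.5, rank 111) also had a region nearest to Ikzf2. The other members named 1 cluster each. Nrp1, a semaphorin coreceptor, had 6 even regions (5.88 to 8.63, sum 44.9) over 130 kb downstream of its TSS. Tigit, an inhibitory receptor, had 4 (sum 40.2), Tnfrsf18, which encodes GITR, had 4 (sum 31.9), and Dusp4, a phosphatase gene, had 4 (sum 31.4). Il2ra, the high-affinity chain of the interleukin-2 receptor, had 5 intronic regions of 4.12 to 9.82 (sum 31.1, rank 414). The other 11 genes of this list, Foxp3 among them, neither named nor neighboured a cluster.

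Among 20 genes of effector regulatory T cells, 4 named a cluster (20%): Tnfrsf1b, Cd44, Maf and Il10. Cd44, an adhesion receptor of activated T cells, named 4 intergenic regions 47.0 to 79.97 kb upstream with signals of 14, 21.3, 9.43 and 17.4 (sum 62.1). Maf, a bZIP factor gene that promotes interleukin-10, named 2 clusters of 4 regions at 192 kb or more downstream of its TSS. The nearer one held signals of 2.70, 10.5, 25.7 and 16.9 and the farther one 8.60, 11.8, 20.8 and 4.89. The region of 2.70 was 150 bp wide with a −log10 p of 3.01, and without it the nearer group would miss the minimum of 4. Il10, the gene of that inhibitory cytokine, named 4 regions with signals of 18.4, 7.06, 19.8 and 9.17 (sum 54.5), 3 of them upstream and 1 in an intron.

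Genes of naive or resting T cells named clusters in these activated cells too, 5 of 15 (33.3%), and this list had wide stretches around its TSSs (median 222 kb). Bach2, a repressor that holds back effector differentiation, named more clusters than any other gene: 4 clusters with 18 regions and a joint sum of 184. They are spread over chr4:32148600-32406357, 1 upstream of the gene and 3 in its introns, and the strongest (sum 65.2) held 5 regions of 9.60 to 15.4. S1pr1, the receptor for egress from lymphoid organs, named 2 intergenic clusters on either side of the gene, with sums of 68.9 and 34.5. Foxp1, a forkhead factor gene, named 6 intronic regions (sum 51.7), Ccr7, the lymph node homing receptor gene, 4 (sum 36.7), and Tcf7, which encodes TCF1, 4 (sum 34.3). Klf2 and Id3 lay nearest to regions of clusters named by other genes, as did Ccr7 for a further cluster (sum 53.7, rank 169).

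Of 16 T lineage transcription factor genes, 5 named a cluster (31.2%), and this list too had wide stretches around its TSSs (median 209 kb). Ets1, the most abundant ETS factor of T cells, named 8 intergenic regions 205 to 245 kb downstream of its TSS (signals 5.28 to 14.1, sum 71.0) and 5 weaker intronic ones (4.61 to 6.12, sum 25.3). Its neighbour Fli1 named 8 intronic regions (5.82 to 14.1, sum 66.6). Bcl6, a transcriptional repressor that acts in follicular T cells, named 5 regions 163 kb or more upstream (sum 41.3). Bcl11b, needed for T cell commitment, named 9 regions in 2 clusters, none above 9.81, and Ikzf3, which encodes Aiolos, named 4 (sum 39.5).

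Signalling genes behind the T cell receptor and NF-kB gave 11 of 33 (33.3%). Besides Prkcq they included Tnfaip3, which encodes the NF-kB inhibitor A20, with 2 upstream clusters. The nearer one lay 78.8 to 112 kb from the TSS, with signals of 20.5, 16.3, 17.6, 10.9 and 9.11 (sum 74.4), and the farther one, beyond 169 kb, was much weaker (sum 26.6). Cd247, the zeta chain of the receptor complex, named 9 regions (sum 72.5), and Prkch, another protein kinase C gene, named 3 clusters with 22 regions in all. Cd5, Nfatc1, Plcg1, Rasgrp1, Itpr1, Lck and Cblb each named 1 cluster. Of 20 genes of interleukin-2, STAT and cytokine signalling, 4 named one (20%): Jak1 (sum 71.2), the suppressor gene Socs1 (sum 58.5), the receptor gene Il10ra (sum 54.4) and Smad7 (sum 49.8), which restrains TGF-beta signalling.

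The other lists gave smaller shares, and each list that gave any stood above the 1.91% of all protein-coding genes, housekeeping and cell cycle genes included. Migration receptors and integrins gave 1 of 18 (5.56%; Cxcr5, with 2 clusters), AP-1 and related factors 1 of 13 (7.69%; Fosb), and co-inhibitory receptors other than those of the core list 0 of 8. Helper and cytotoxic lineage genes gave 3 of 17 (17.6%). Ifng, the gene of interferon-gamma, named 6 intergenic regions 17.9 to 45.9 kb downstream of its TSS, with signals of 6.15, 11.3, 12.7, 9.76, 17.1 and 19.1 that were highest at the far end (sum 76.1, rank 32). Fasl, a death ligand gene, named 5 regions (sum 52.9) and Rora, a nuclear receptor gene, 4 (sum 36.6). Housekeeping genes gave 2 of 16 (12.5%; Ywhaz and Eef1a1) and cell cycle genes 1 of 18 (5.56%; Ccnd3). Clusters were named by 0 of 12 B cell genes, 0 of 13 myeloid genes, 0 of 16 liver, muscle and neuron genes and 1 of 8 NK cell genes (12.5%). That one, Klrb1c, had no promoter region, and 3 of its 5 regions were near-copies of other distal regions, and how reads were placed among such copies was not tested. All these lists were chosen with earlier results of these data known. They are short and their stretches differ in length, so the shares describe the clusters and were not tested. At the 1.91% of all protein-coding genes, lists this short would mostly hold none, so the counts of 0 do not set them apart.

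**Figure D3:**
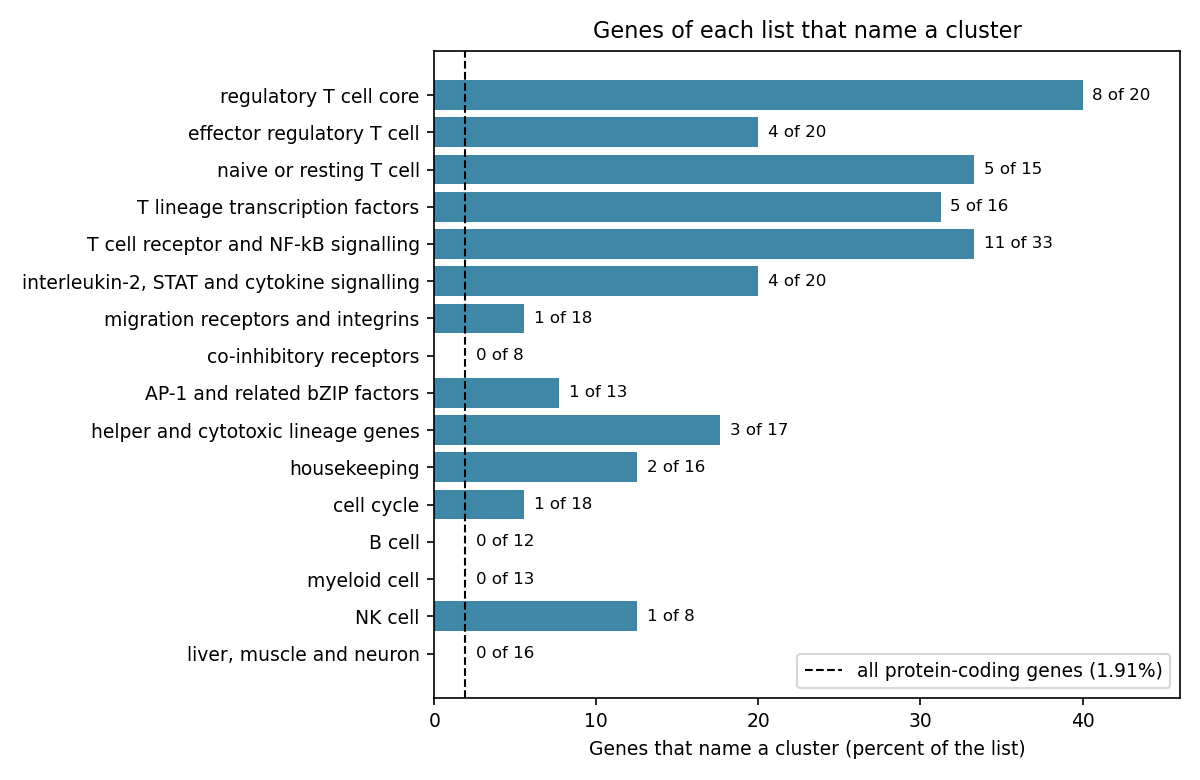
Percent of the genes of each list that name a cluster (horizontal bars, starting at 0), with the counts beside each bar; the dashed line is the share among all protein-coding genes (1.91%). The regulatory T cell core list stands highest at 8 of 20, and the B cell, myeloid, co-inhibitory and liver, muscle and neuron lists are at 0. The lists were chosen with earlier results of these data known.

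More than 1 cluster was named by 31 genes. Bach2 had 4, and Prkch, Trio and Rap1b had 3 each. The other 27 genes had 2 each, among them Ankrd44, Btg1, S1pr1, Maf, Tnfaip3, Ets1, Ctla4, Ikzf2, Bcl11b, Cxcr5, Cd47, Cd82, Zbtb38, Zfp281, Tmsb4x, Ski, Itpk1, Itpkb, Mgat5, Dock10, Zfp217, Adgre5, Hivep2, Mbnl1, Timm8a2, Trib1 and Sfi1. The highest joint sums after Bach2 were 166 for Prkch, 152 for Ankrd44 and 139 for Tmsb4x.

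Regions in clusters had lower signal values than isolated ones although their p-values were alike. The median signal fell with the size of the group, from 14.1 for single regions to 12.1 in groups of 2, 10.6 in groups of 3 and 9.35 in clusters. The median −log10 p did not fall with it and was 55.8, 59.2, 61.7 and 59.6 in the same order. Within each band of −log10 p the order was the same. Between 40 and 60, single regions had a median signal of 14.2 (quartiles 12.2 and 15.5, n = 1773) and cluster regions 8.17 (6.31 and 11, n = 526). Above 120 the medians were 20.9 (n = 1309) and 15 (n = 464). The signal is the peak caller's own value with a baseline not given in the sources used here. What sets this offset was not tested. It bears on the ranking: ordered by summed −log10 p instead, 12 of the 20 leading clusters stayed in the first 20. Cluster regions were slightly narrower than single regions (median 500 against 547 bp), fewer had more than 1 summit (33.8% against 39.0%), and fewer lay in exons (2.83% against 4.83%). The GC content around the summit was alike, at 49.8% and 49.3%.

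**Figure D4:**
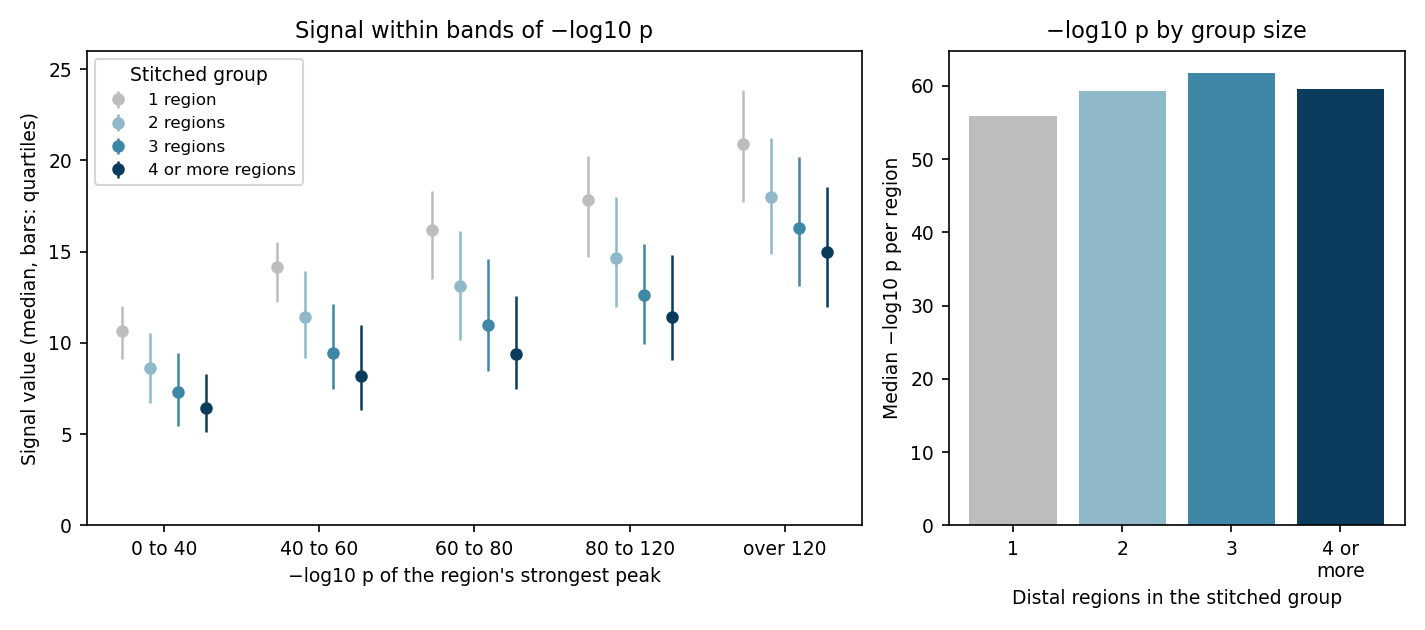
Left, signal value of distal regions (points are medians, bars are quartiles) in 5 bands of −log10 p, by the number of regions in the stitched group; right, median −log10 p per region by group size (bars start at 0). In each band the signal is highest for single regions and lowest in clusters, while the median −log10 p lies between 55.8 and 61.7.

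The ranked list gives each peak a −log10 p in each of the 2 inputs that were compared. Their origin is unknown here. The summed −log10 p of a cluster in input 1 was a median of 1.01 times that in input 2 (0.647 to 1.60), and 368 of 456 clusters were within 1.2-fold. Across clusters the Pearson correlation on the log2 scale was 0.943 and the Spearman correlation 0.937 (n = 456), with size and alignment shared by both inputs. The regions had already passed a threshold on the IDR, which keeps peaks that agree between inputs. Close values were thus partly set in advance and do not measure reproducibility. The first 20 clusters by either input had 16 in common.

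Motif matches were counted in 201 bases around the strongest summit of each of the 2225 cluster regions and the 12491 other distal regions. Flanks were windows centred 1000 bp to the right of the same summits. The ETS motif ACAGGAAGT was found in 6.88% of cluster regions against 0.449% of flanks, RUNX TGTGGTT in 14.2% against 5.17% and AP-1 TGANTCA in 14.3% against 6.16%. Other motifs stood above the flanks by ratios like that of AP-1 (2.32 times) or higher: CRE by 6.17, NRF1 (GCGCNTGCG) by 5.67, REST (TTCAGCACC) by 3.33, BACH and MAF (GCTGAGTCA) by 2.67, KLF by 2.53, CTCF by 2.42 and NF-kB by 2.28 times. In the flanks CRE, NRF1, REST and the BACH and MAF motif rest on 6, 3, 3 and 9 windows. The ETS, RUNX and AP-1 families include Ets1 and Fli1, Runx factors that partner Foxp3, and the Jun and Fos factors of activated T cells. Other distal regions had nearly the same shares: 6.29% for ETS, 13.9% for RUNX and 13.5% for AP-1, each with an interval that overlapped that of the cluster regions. At promoter regions the shares were 1.96%, 3.73% and 3.95%. A match to ETS (ACAGGAAGT or ACCGGAAGT), RUNX or AP-1 was held by 32.6% of cluster regions (30.7 to 34.6) and 30.6% of other distal regions (29.8 to 31.4). At least 1 such region was found in 371 of 456 clusters, at least 2 in 225, and all 3 families in 41. Clusters hold 4 or more regions by rule, which alone raises such counts. A flank overlapped an accessible region, its own or another, in 10.1% of cluster regions and 3.99% of the others.

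In 2 of the 29 motifs compared the clusters stood apart from other distal regions with intervals that did not overlap. CTCF (CNAGGNGGC), the factor that anchors chromatin loops, had matches in 5.44% of cluster regions (4.57 to 6.46) against 7.66% of the others (7.21 to 8.14). By group size the CTCF share was 8.77% for single regions, 6.41% in groups of 2 and 5.49% in groups of 3. The cyclic AMP response element CRE (TGACGTCA), bound by CREB and ATF factors, had matches in 1.66% (1.21 to 2.28) against 0.865% (0.717 to 1.04). The CTCF intervals stayed apart in 11 of 12 settings of list, window and clustering, the exception being the stricter list (6.26% against 6.85%). The CRE intervals were apart in only 4 of the 12, so their separation was lost in most settings, although the CRE share stayed higher in clusters. For the other motifs named here the intervals overlapped. NF-kB matches were present in 7.69% of cluster regions and 7.77% of others, STAT in 7.15% and 7.14%, TCF/LEF in 4.58% and 4.72%, forkhead in 3.78% and 3.90%, NFAT in 4.27% and 3.46%, KLF (CCACACCC) in 4.09% and 3.29%, and the interferon response motif GAAANNGAA in 8.81% and 10.4%. NFAT matches were no more frequent in cluster regions than in their flanks (4.76%). TEAD (ACATTCC) and HNF1 (GTTAATNAT) are motifs of factors known from other tissues. They were less frequent in cluster regions (1.03% and 0.0899%) than in their flanks (2.56% and 0.449%), where HNF1 rests on 2 and 10 windows. The same held in other distal regions (1.10% and 0.264% against 2.81% and 0.560%). Further motifs of such factors went the other way: REST (0.449% against 0.135%), MEF2 (TAAAAATAG, 0.539% against 0.494%) and C/EBP (TTGCGCAA, 4 windows against 0). These 29 motifs overlap in part: the bZIP motifs share bases with AP-1, and the ETS-IRF composite with the interferon response motif. No test of enrichment was made.

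**Figure D5:**
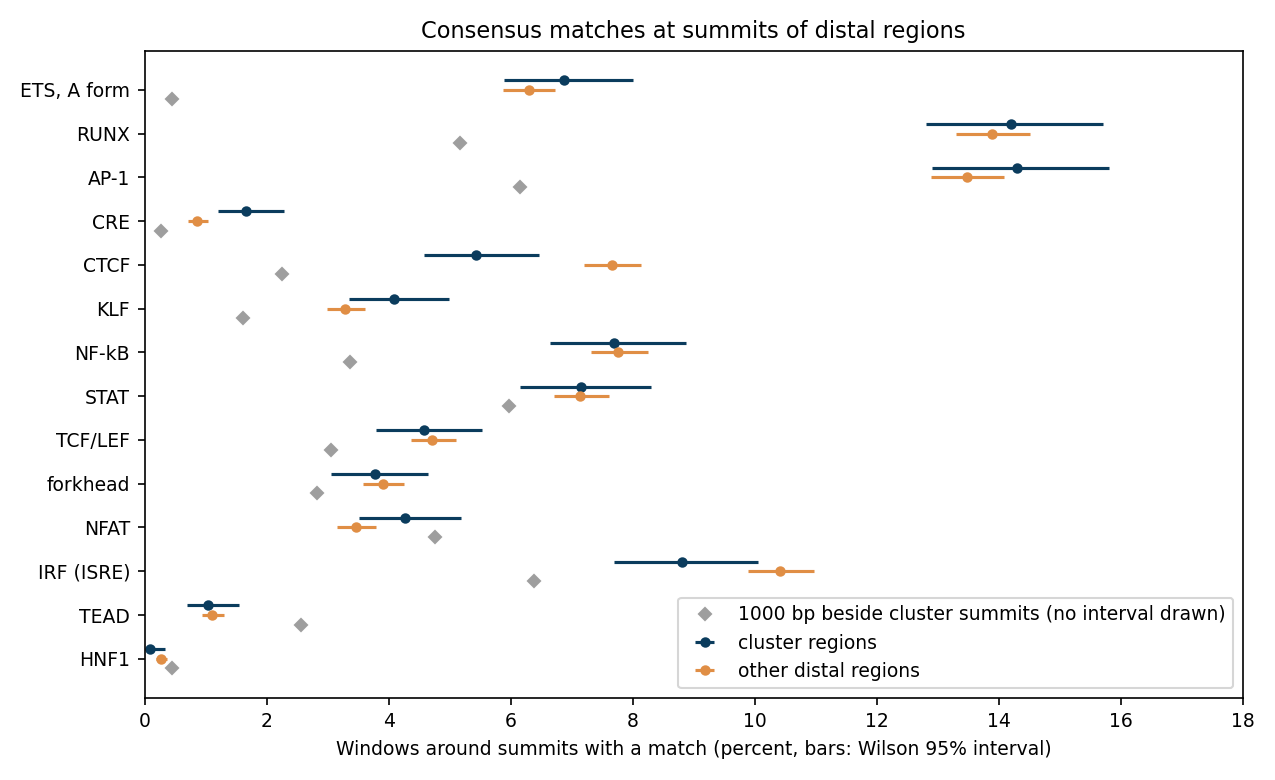
Percent of 201-bp windows with a match to each consensus (horizontal axis) at the summits of cluster regions and other distal regions, with Wilson 95% intervals, and in windows 1000 bp beside cluster summits (diamonds). The intervals of cluster and other distal regions are apart for CTCF and CRE, and for ETS, RUNX and AP-1 both lie well to the right of the flanks.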

How the data were processed

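ATAC-seq was measured in 2 libraries, technical replicates of 1 biological replicate, and the values come from 3 peak lists of both together on mm10. Per the README files deposited with each library, all 3 lists derive from 1 alignment. Aligner, peak caller, versions, read filters and any shift of reads for the transposase: not given in the sources used here. Neither signal tracks nor alignments were used, and the depth is unknown. The deposited signal value is the peak caller's enrichment per peak, as the authors left it. The deposited −log10 columns hold the p-value and q-value of each peak and, in the ranked list, the IDR and the values of the 2 inputs. The deposited score follows from the global IDR in the ranked and thresholded lists. All are the authors' own values per peak.

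Rows of the thresholded list (48668) that overlapped were merged into 26090 regions, each with the signal and summit of its strongest row. TSSs were those of all transcripts of protein-coding genes in GENCODE M21 (GRCm38.p6) on chromosomes 1 to 19, X and Y. As a check of the build, 83 of 83 RefSeq promoter sequences equalled the genome read by coordinates. Distal regions over 1000 bp from every TSS were stitched across gaps of 12.5 kb or less, and groups of 4 or more were kept, ranked by summed signal and named by the gene nearest to most regions (ties by signal). Regions were classed by the strongest summit. Copies were distal regions that matched another at 95% identity over 50% of their length by blastn 2.17.0. Shares carry Wilson 95% intervals. Genes named were the 20 clusters of highest sum, 5 each with the most regions, the most per kb, the widest span and the lowest sum, 5 groups of 3 regions, genes with more than 1 cluster, all members of 4 T cell lists and up to 4 of other lists; others (Myo3b, Sv2b, Klf2, Vmp1) were chosen after their values were seen. The members, the 16 gene lists and the 29 motifs were chosen with earlier results of these data known. Stitching, distances and motif counts were tested on simulated data. Alternatives covered the peak list, the gap, the fewest regions, the TSS distance and set, the ranking, the naming and the motif window. Leaving out a library was not possible. Python 3.11.15, numpy 2.4.6, pandas 2.3.3, scipy 1.17.1 and pysam 0.24.0 were used.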

Additional observations from a re-analysis of the deposited data

How the results depend on the processing

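The number of clusters follows from the rule. There were 1987 clusters with the pseudoreplicated list, 174 with the stricter list (global IDR of 0.01 or below), 84 with a stitching gap of 5 kb, 847 with 25 kb, 1045 with 3 or more regions and 205 with 5 or more. In the same order they held 11828, 799, 370, 4802, 3992 and 1221 distal regions and were named by 1616, 170, 82, 787, 901 and 195 genes. With a TSS distance of 500 or 2500 bp, or 1 TSS per gene, all 3 counts stayed within 1.5 times. The share of naming genes with a promoter region was 77.6% with the stricter list, 87.7% with 5 or more regions and 68.4% with 1 TSS per gene, where fewer promoters count, and within its interval otherwise. Of the leading 20 clusters, 6 overlapped the first 20 of the pseudoreplicated list, 10 those of the stricter list, 1 with a gap of 5 kb and 7 with 25 kb. Ranked by summed −log10 p 12 stayed, by the number of regions 13, by signal over all rows 13 and by signal times width 9. With 3 or 5 regions as the minimum 20 stayed. Named by the midpoint 440 of 456 clusters kept their gene, and by the strongest region 410 did. The ETS share in cluster regions was 5.57% within 50 bp of the summit and 5.50% with the pseudoreplicated list. RUNX was 8.72% and 12.7% there and 16.9% over all summits of a region, and AP-1 was 9.35% within 50 bp and 17.7% over all summits. Alternatives for the CTCF and CRE differences and for the signal offset were partly chosen after seeing the data. CTCF stayed lower in clusters in every setting run, by 0.592 (stricter list, 6.26% against 6.85%) to 3.72 percentage points, and CRE stayed higher, by 0.200 (pseudoreplicated list) to 0.930 points. The intervals overlapped in 1 of 12 settings for CTCF and in 8 of 12 for CRE: 50 bp windows (1.12% against 0.713%), the pseudoreplicated (0.845% against 0.645%) and stricter lists, both gaps, both minimum sizes and 1 TSS per gene. The median signal of cluster regions was below that of single regions in all 10 settings, by 1.56 with the pseudoreplicated list and 7.20 with a gap of 5 kb. The lists pool both libraries, so no value without 1 library exists here, and the unknown depth limits every count of weak regions.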

Other observations

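Noncoding RNA genes lay in some of the clusters. Mir21a, the gene of a microRNA induced in activated T cells, lies within the span of the Vmp1 cluster (5 regions, summed signal 35.8, rank 373). The cluster at Lta, a gene of the tumour necrosis factor locus, had regions nearest to Lta, Tnf, Lst1, Ltb and 2 other genes, with 6 regions and a sum of 55.9, and it spans Mir6973a and Mir6974. A TSS of a long noncoding RNA gene lay within 1000 bp of 84 cluster regions (3.78%) and 4.40% of other distal regions. MicroRNA genes were not part of this count, so nearness to the TSS of any noncoding gene was not measured. Such regions were found in 68 clusters, and the rule counted them as distal.

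Clusters per 100 Mb ran from 11.2 on chromosome 5 to 26 on chromosome 10 among the autosomes. Chromosome X had 4 clusters (2.34 per 100 Mb), with 6.86% of its 277 distal regions in them, against 15.1% in all, and chromosome Y had none among 3 distal regions. The libraries are from male mice, with a single X chromosome, and the part of this in the count was not tested.

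Near-copies of other distal regions made up 15 cluster regions in 6 clusters: Klhl25, Scaf8, Eapp (6 of 6 regions), Klrb1c, Mbnl1 and Sfi1. None of these is among the leading 20. The spans also held weaker regions that only the pseudoreplicated list contains: 567 of 19615 such distal regions (2.89%) lay inside them.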
